A study of Homo sapiens with 15 samples.

Results

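The autophagy machinery and its transcription factor TFEB were followed as 38 genes in RNA sequencing of LNCaP cells, a human prostate cancer line that carries the androgen receptor and depends on androgen. The genes were chosen by name, from the start of the autophagosome to its end at the lysosome, and all 38 were among the 17272 genes measured. The cells were starved of steroids for 2 days by stripping the serum with charcoal, and were then given R1881, a synthetic androgen, at 1 nM for 22 h. The combination group (n = 5 libraries) also received darolutamide, an inhibitor of the androgen receptor, at 2 µM, and the R1881 group (n = 10 libraries) received the solvent DMSO. Both groups thus received androgen, and no group without it was analysed here.

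In macroautophagy, a membrane sheet grows around cytoplasm or organelles, closes into an autophagosome and is delivered to the lysosome for digestion. The ULK kinase complex starts the process, a class III phosphatidylinositol 3-kinase complex marks the membrane with PI3P, and proteins that bind PI3P recruit the machinery that attaches ATG8 proteins to the membrane, where cargo receptors bind them. TFEB and TFE3 switch on lysosomal and autophagy genes from E-box sites once they enter the nucleus, which the kinase mTORC1 prevents by phosphorylating them. Androgen receptor signalling has been studied as a regulator of autophagy in prostate cancer cells. The values here are transcript levels, which show neither the location nor the phosphorylation of TFEB nor the number of autophagosomes.

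The values are read counts scaled to library size with a further scaling (scaled CPM), from 21870398 to 25317567 reads per library in the combination group and 15830745 to 24316740 in the R1881 group. The labels number the libraries 86 to 90 in the combination group, and 71 to 75 and 51 to 55 in the R1881 group, so that treatment and numbering run cannot be told apart. KLK3, which encodes PSA and is induced by androgen, averaged 614.7 ± 55.9 CPM in the combination group and 1588 ± 209 CPM in the R1881 group (SD). Within the R1881 group KLK3 averaged 1397 CPM in libraries 51 to 55 and 1779 CPM in libraries 71 to 75 (limma adjusted p = 0.00678). All 8 luminal LNCaP markers were detected, of which 5 were lower and 2 higher in the combination group. Of the markers of other cells, no leukocyte gene of 4 and 1 basal gene of 3 were in the table, and the 3 of 6 fibroblast genes in it were all higher, with a summed level of 13.5 to 30.6 CPM in the combination group and 6.36 to 10.5 CPM in the R1881 group. Of these 3, COL1A1 overlapped between groups and reached 20.6 CPM in combination replicate 4. LUM averaged 0.496 CPM in the combination group and 0.213 CPM in the R1881 group, and COL3A1 8.19 and 1.84 CPM in the same order. The part of these genes in the results below was not tested. In bulk RNA, fewer cells of a kind and less RNA per cell cannot be told apart.

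Most autophagy genes moved little, and a few moved far. WIPI1 averaged 5.84 ± 0.27 CPM in the combination group and 35 ± 1.79 CPM in the R1881 group (SD), while ATG3 was 2.75-fold higher and OPTN 1.87-fold higher by the ratio of mean CPM. Of the 38 genes, 5 were lower and 9 higher in the combination group at a limma adjusted p under 0.05, and 24 did not pass the test. With libraries scaled by their totals, which moved the median of all genes upward by 0.066 on the log2 scale, 3 were lower and 13 higher. With that scaling 3030 of all 17272 genes were lower and 5326 higher. The shares that follow are from the fit without it. The 5 genes called lower were 13.2% of the 38 and the 9 called higher were 23.7%, where among all genes 23.7% were lower and 22.8% higher. The share called in either direction was 36.8% for the autophagy genes and 46.6% for all genes. The median log2 fold change was 0.01 over the 38 genes and 0.00 over all genes. An absolute log2 fold change of at least 0.5 together with an adjusted p under 0.05 was reached by WIPI1, ATG3 and OPTN, 3 of 38, while 14.4% of all genes reached it. The combination libraries lay wholly below the R1881 libraries for WIPI1 and ATG13 (2 of 38, 12.6% of all genes) and wholly above them for ATG3 and OPTN (2 of 38, 10.8% of all genes).

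**Figure D1:**
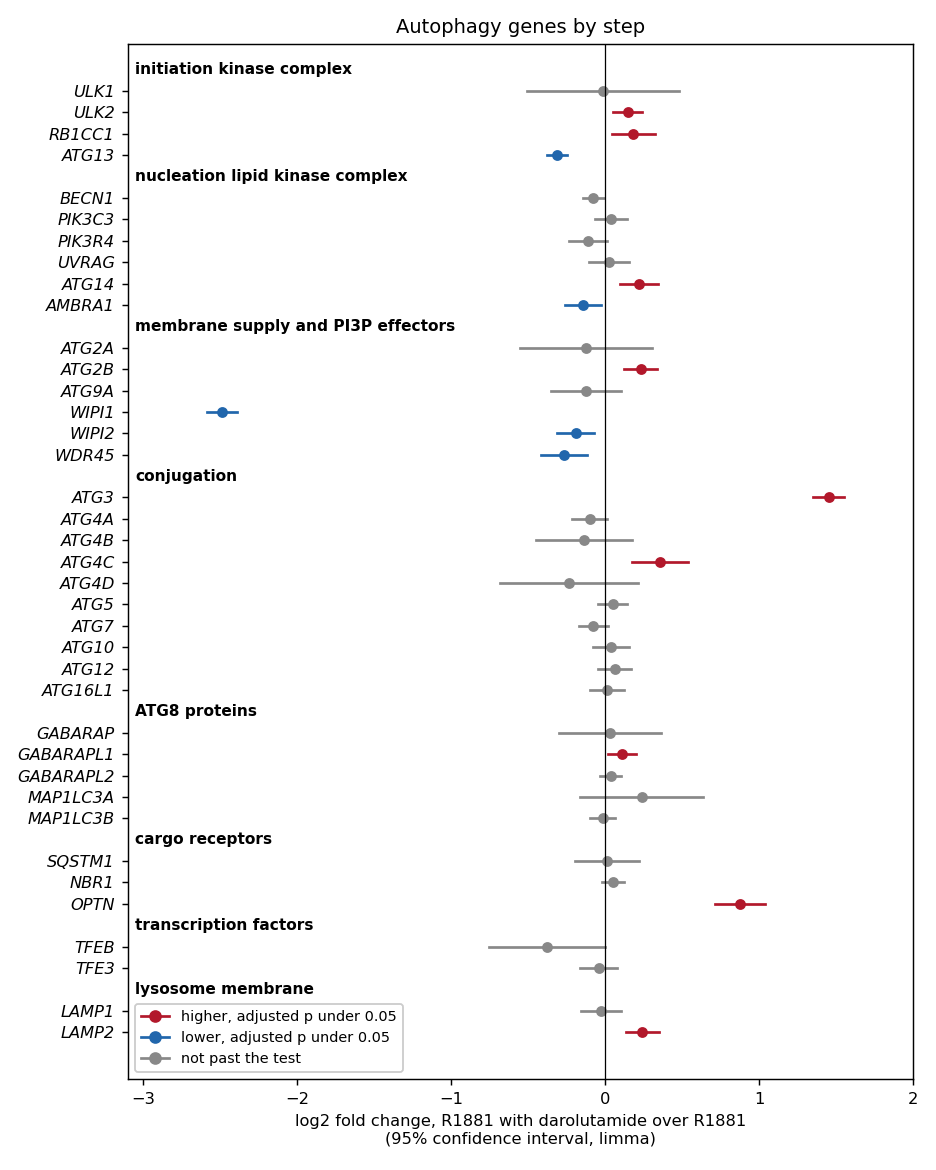
The log2 fold change of each of the 38 autophagy genes (x axis, R1881 with darolutamide over R1881, with its 95% confidence interval from limma) is drawn by step of autophagosome formation, red for higher, blue for lower and grey for not past the test. WIPI1 at -2.49 and ATG3 at 1.45 stand far from the other genes, and 31 of 38 lie within 0.25 of 0.

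In the initiation kinase complex, ATG13 fell while ULK2 and RB1CC1 rose. ATG13 is the subunit that links the kinases to the rest of the complex. Its level was 91.9, 87.6, 87.7, 88.2 and 90.1 CPM in the combination libraries, against a lowest of 106, a median of 111 and a highest of 116 CPM in the R1881 libraries. The groups did not overlap, and the spread within each was small beside the gap. ATG13 changed by -0.31 ± 0.031 on the log2 scale (SE, adjusted p = 1.85e-07). ULK2, the less studied of the paired kinases, was at 35.6 to 39.4 CPM in the combination group and 31.4 to 37.4 CPM in the R1881 group (log2 fold change 0.15, adjusted p = 0.0107). Against libraries 71 to 75 alone ULK2 did not pass the test (adjusted p = 0.0765), nor against R1881 replicates 1 to 5 alone (adjusted p = 0.05). For RB1CC1, the large scaffold also called FIP200, the log2 fold change was 0.18 with an adjusted p of 0.033. The call of RB1CC1 was lost without combination replicate 1, 2, 3 or 5 or R1881 replicate 1 or 5, each left out alone (adjusted p 0.0502 to 0.105), and against libraries 51 to 55 alone (0.205).

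ULK1, the main initiating kinase, did not pass the test, and its combination libraries were the most uneven among the 38 genes. It was at 19.1, 19.6, 15.2, 62.0 and 22.1 CPM in combination replicates 1 to 5, against a lowest of 20.2 and a highest of 38.3 CPM in the R1881 libraries. In the combination group replicate 4 was above every other library of the study and replicate 3 below all. ULK1 had a log2 fold change of -0.01 (95% confidence interval -0.50 to 0.48), and without combination replicate 4 it was -0.35 (adjusted p = 0.0239). Without combination replicate 3 ULK1 did not pass the test. After a correction for GC content, chosen after the data had been seen, the log2 fold change of ULK1 was -0.04 (limma adjusted p = 0.659).

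In the class III phosphatidylinositol 3-kinase complex, ATG14 rose and AMBRA1 fell slightly, and the other 4 genes did not pass the test. ATG14 is the subunit that directs the complex to the site where autophagosomes form. It was at 21.3, 20.02, 19.8, 18.1 and 20.4 CPM in the combination libraries, against a lowest of 15.3, a median of 17.2 and a highest of 19.2 CPM in the R1881 libraries. The groups overlapped through combination replicate 4. ATG14 had a log2 fold change of 0.22 ± 0.058 (SE, adjusted p = 0.00499), and against libraries 71 to 75 alone it was 0.19 (adjusted p = 0.0505). AMBRA1, a regulator that binds Beclin 1, averaged 29.4 ± 3.06 CPM in the combination group and 32.5 ± 1.55 CPM in the R1881 group (log2 fold change -0.14, adjusted p = 0.045). The call of AMBRA1 was lost with edgeR (adjusted p = 0.0565), with DESeq2 (0.0738) and without any 1 of combination replicates 1 to 3 or R1881 replicates 1 to 7 (0.0596 to 0.17), and against either R1881 run alone (0.22 for libraries 51 to 55 and 0.0803 for 71 to 75). BECN1, PIK3C3, PIK3R4 and UVRAG, which encode Beclin 1, the lipid kinase VPS34, its partner VPS15 and an alternative subunit, had log2 fold changes of -0.11 to 0.04.

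The PI3P effectors held the largest change among the 38 genes. WIPI1, a propeller-shaped protein that binds PI3P on the growing membrane, was at 5.70, 5.58, 6.07, 6.18 and 5.65 CPM in the combination libraries, against a lowest of 32.6, a median of 34.8 and a highest of 38.1 CPM in the R1881 libraries. All 5 combination libraries were within 1 CPM of each other and far below every R1881 library. In the fit of all genes its log2 fold change was -2.49 ± 0.047 (SE, adjusted p = 2.39e-17). Among the 4004 genes that were lower with a mean of at least 1 CPM, WIPI1 was at rank 27 by the size of its fold change. In the R1881 group WIPI1 averaged 34.5 CPM in libraries 71 to 75 and 35.4 CPM in libraries 51 to 55, so the difference between these runs was under 1 CPM.

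The related PI3P-binding proteins of the WIPI family moved the same way as WIPI1 but by far less. WIPI2, which recruits ATG16L1, averaged 58.0 ± 6.39 CPM in the combination group and 66.1 ± 3.94 CPM in the R1881 group (log2 fold change -0.19, adjusted p = 0.0112). WDR45, also called WIPI4, averaged 37.7 ± 4.30 CPM in the combination group and 45.4 ± 3.98 CPM in the R1881 group (log2 fold change -0.27, adjusted p = 0.00441). For both the groups overlapped through combination replicate 4, and neither call was kept against R1881 libraries 51 to 55 alone (adjusted p = 0.0879 for WIPI2 and 0.0675 for WDR45). WIPI2 also lost its call when libraries were scaled by their totals (adjusted p = 0.0919). The remaining genes of this step supply membrane. ATG2B, a lipid transfer protein, rose (71.1 ± 4.86 CPM in the combination group, 60.5 ± 3.61 CPM in the R1881 group, log2 fold change 0.23, adjusted p = 0.000956), while its paralogue ATG2A and the lipid scramblase ATG9A had log2 fold changes of -0.12 and -0.13 and did not pass the test.

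WIPI1 lies on the minus strand of chromosome 17 (chr17:68420948-68457513 on GRCh38, by GENCODE version 44), and the gene ARSG, which encodes arylsulfatase G, a lysosomal sulfatase, ends within it on the plus strand. Exons of WIPI1 and ARSG share sequence at the 3′ ends, between positions 68420948 and 68421820, and 28.1% of the exon bases of WIPI1 are covered by exons of the opposite strand. ARSG, looked up after the values of WIPI1 had been seen, averaged 13.7 ± 0.85 CPM in the combination group and 26.9 ± 1.93 CPM in the R1881 group (log2 fold change -0.94 ± 0.057, adjusted p = 2.16e-10). Both genes were thus lower in all 5 combination libraries, and the fold was larger for WIPI1. The library kit keeps the strand, but whether the counting used it is not given in the sources used here, so reads of the shared bases cannot be told apart between these genes. In the other autophagy genes the exon bases covered from the opposite strand reached 22.4% (SQSTM1), with 20.8% in ATG14.

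In the conjugation step ATG3 and ATG4C rose, ATG3 by far the more, and the other 8 genes did not pass the test. ATG3 is the E2-like enzyme that transfers ATG8 proteins to phosphatidylethanolamine in the membrane. It was at 166, 170, 177, 148 and 167 CPM in the combination libraries, against a lowest of 54.8, a median of 60.6 and a highest of 65.1 CPM in the R1881 libraries. The lowest combination library, replicate 4, was still more than 80 CPM above the highest R1881 library. ATG3 changed by 1.45 ± 0.048 on the log2 scale (SE, adjusted p = 3.97e-14), at rank 81 of the 3484 genes that were higher with a mean of at least 1 CPM. The other enzymes that act with ATG3 did not pass the test: ATG7, the E1-like enzyme before it, averaged 28.6 CPM in the combination group and 30.2 CPM in the R1881 group, and ATG10, the E2-like enzyme for ATG12, averaged 16.6 CPM in the combination group and 16.2 CPM in the R1881 group. ATG5, ATG12 and ATG16L1, whose products together act as the E3-like ligase, had log2 fold changes of 0.01 to 0.06.

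The ATG4 proteases cut ATG8 proteins before they are conjugated and release them again from the membrane. ATG4C rose, with 16.4, 17.4, 17.4, 12.8 and 16.5 CPM in the combination libraries, against a lowest of 10.1, a median of 12.5 and a highest of 15.4 CPM in the R1881 libraries. Replicate 4 alone of the combination libraries lay inside the R1881 range. In ATG4C the log2 fold change was 0.36 ± 0.087 (SE, adjusted p = 0.00259). ATG4A, ATG4B and ATG4D had log2 fold changes of -0.10, -0.14 and -0.24 and did not pass the test.

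The start of ATG3 faces that of SLC35A5, a nucleotide sugar transporter gene on the opposite strand of chromosome 3. In GENCODE the annotated starts lie 337 bases apart, inside each other, with 124 shared exon bases, and 2.03% of the exon bases of ATG3 (chr3:112532510-112562046, minus strand) are covered from the other strand. SLC35A5, also looked up after the values of ATG3 had been seen, was at 93.5, 94.7, 102, 77.3 and 90.3 CPM in the combination libraries, against a lowest of 51.9, a median of 57.2 and a highest of 59.4 CPM in the R1881 libraries. The neighbours on both sides of the shared start were thus higher in every combination library. SLC35A5 had a log2 fold change of 0.69 ± 0.051 (SE, adjusted p = 3.84e-09).

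The E-box CACGTG is the core of the sites that TFEB and TFE3 bind, and TCACGTGA is the longer form found at lysosomal genes. RefSeq promoters of 300 bases (250 before and 50 after each start, GRCh38.p14) were matched to 33 of the 38 genes and searched on both strands. CACGTG was found in 3 of the 33 genes, ATG3, ATG14 and LAMP1 (9.09%), and in 7.26% of all 35116 promoters. Since genes with several promoters have more chances, the share per gene was 12.7% of the 9968 genes of the expression table with a promoter. TCACGTGA, which contains CACGTG, was found in ATG3 and LAMP1 (6.06%), in 2.26% of those 9968 genes and in 0.98% of all promoters. These matches describe letters and not bound sites. The 3 promoters with an E-box are shown with CACGTG in capitals, and that of WIPI1 is shown for comparison because the gene had the largest change.
ATG3, chr3:112561913-112562212, minus strand: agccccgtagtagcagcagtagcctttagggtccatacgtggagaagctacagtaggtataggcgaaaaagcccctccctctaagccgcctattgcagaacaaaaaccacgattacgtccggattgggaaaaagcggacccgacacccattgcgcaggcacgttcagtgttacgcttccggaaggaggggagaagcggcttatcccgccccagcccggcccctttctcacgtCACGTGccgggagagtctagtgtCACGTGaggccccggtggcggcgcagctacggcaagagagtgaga
ATG14, chr14:55411781-55412080, minus strand: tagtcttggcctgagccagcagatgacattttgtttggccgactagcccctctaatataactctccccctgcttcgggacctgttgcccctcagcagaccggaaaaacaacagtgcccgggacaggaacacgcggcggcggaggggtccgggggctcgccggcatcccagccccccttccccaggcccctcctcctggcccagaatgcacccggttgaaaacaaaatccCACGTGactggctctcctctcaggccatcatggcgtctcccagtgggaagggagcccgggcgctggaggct
LAMP1, chr13:113296989-113297288, plus strand: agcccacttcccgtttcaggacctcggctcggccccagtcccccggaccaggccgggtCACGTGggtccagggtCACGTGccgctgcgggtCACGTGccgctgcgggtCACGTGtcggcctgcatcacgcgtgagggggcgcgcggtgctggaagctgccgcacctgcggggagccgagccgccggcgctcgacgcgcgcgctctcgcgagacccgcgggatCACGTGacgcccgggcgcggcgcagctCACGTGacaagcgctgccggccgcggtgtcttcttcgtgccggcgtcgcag
WIPI1, chr17:68457447-68457746, minus strand: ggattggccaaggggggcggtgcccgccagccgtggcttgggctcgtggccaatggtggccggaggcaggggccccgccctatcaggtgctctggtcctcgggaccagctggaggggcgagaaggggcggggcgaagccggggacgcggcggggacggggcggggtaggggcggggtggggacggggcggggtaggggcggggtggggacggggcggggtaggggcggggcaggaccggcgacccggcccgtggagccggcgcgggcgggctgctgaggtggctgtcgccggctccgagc

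Counted from the RefSeq start site of each promoter, with the first transcribed base as 1, the E-boxes of ATG3 begin at -18 and 6, and that of ATG14 at -21. For ATG3 this RefSeq start lies downstream of the GENCODE start of ATG3, from which the distance to SLC35A5 was given above. LAMP1 holds 6, beginning at -192, -176, -159, -142, -28 and -1. ATG3 with 2 E-boxes had a log2 fold change of 1.45, ATG14 with 1 had 0.22, and LAMP1 with 6 had -0.03 and did not pass the test. A link between E-boxes and the size of the change was not tested. The promoter of WIPI1 held none and was 79.7% G and C, against 59% for ATG3.

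Of the ATG8 proteins, which coat the autophagosome and bind cargo receptors, only GABARAPL1 passed the test. GABARAPL1 was at 61.9, 59.9, 65.0, 59.1 and 61.0 CPM in the combination libraries, against a lowest of 51.4, a median of 57.1 and a highest of 63.9 CPM in the R1881 libraries. The groups overlapped through R1881 replicate 7, at 63.9 CPM, while the other 9 R1881 libraries were at 51.4 to 58.2 CPM. GABARAPL1 had a log2 fold change of 0.11 ± 0.043 (SE, adjusted p = 0.044), and the call was lost when combination replicate 1, 2, 3 or 5 or R1881 replicate 1 to 6 or 9 was left out alone (adjusted p 0.05 to 0.126), and against libraries 51 to 55 alone (0.132). MAP1LC3B, which encodes the LC3B protein used as the standard marker of autophagosomes, averaged 80.3 ± 3.34 CPM in the combination group and 81.2 ± 3.66 CPM in the R1881 group, with a 95% confidence interval of the log2 fold change from -0.10 to 0.06. Its near-identical copy MAP1LC3B2 averaged 12.1 ± 1.19 CPM in the combination group and 13.0 ± 0.94 CPM in the R1881 group, and reads may be split between them. GABARAPL2 had a log2 fold change of 0.04. GABARAP (4.35 CPM in the combination group, 4.16 CPM in the R1881 group) and MAP1LC3A (2.33 and 1.85 CPM in the same order) were low, and GABARAP shares 35.4% of its exon bases with other genes on its own strand in GENCODE version 44, so its count is uncertain.

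Among the cargo receptors OPTN rose, and SQSTM1 and NBR1 did not pass the test. OPTN encodes optineurin, a receptor for ubiquitin-tagged mitochondria and bacteria. It was at 18.1, 17.4, 20.9, 16.6 and 19.8 CPM in the combination libraries, against a lowest of 8.28, a median of 10.0 and a highest of 11.3 CPM in the R1881 libraries. Every combination library was above every R1881 library by more than 5 CPM. OPTN changed by 0.87 ± 0.078 on the log2 scale (SE, adjusted p = 4.16e-08), at rank 332 of the 3484 higher genes. Against libraries 71 to 75 alone it was 0.96 and against libraries 51 to 55 alone 0.79. SQSTM1, which encodes p62, averaged 285 ± 58.6 CPM in the combination group and 280 ± 31.3 CPM in the R1881 group (95% confidence interval of the log2 fold change -0.20 to 0.22). NBR1 averaged 234 ± 10.9 CPM in the combination group and 226 ± 7.86 CPM in the R1881 group (interval -0.02 to 0.12).

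**Figure D2:**
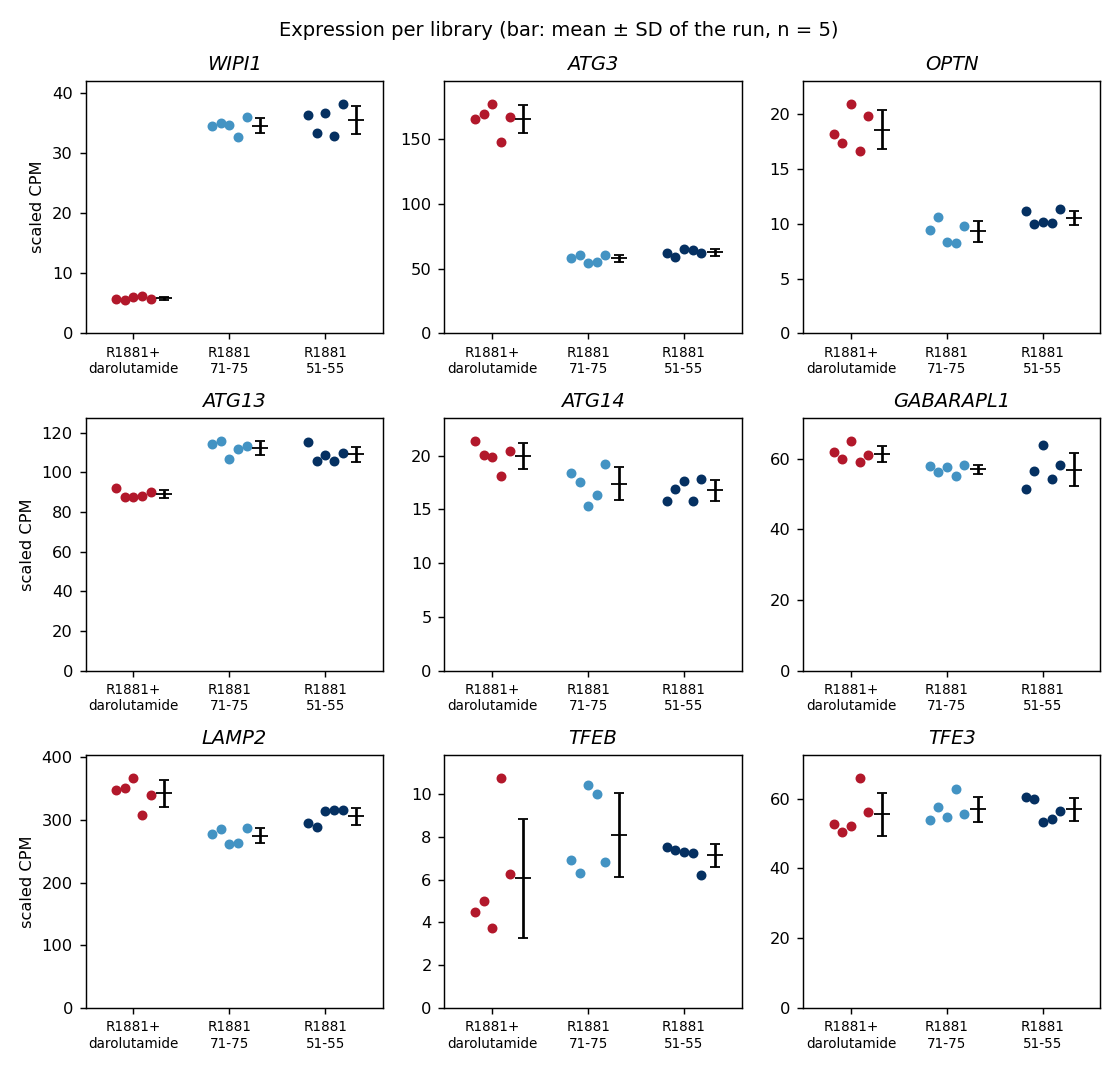
Each point is the scaled CPM of 1 library (y axis, from 0), in R1881 with darolutamide (red), R1881 libraries 71 to 75 (light blue) and R1881 libraries 51 to 55 (dark blue), with the mean ± SD of the run beside it (n = 5 each). The combination libraries stand clear of both R1881 runs for WIPI1, ATG3, OPTN and ATG13, while for TFEB combination replicate 4 at 10.8 CPM lies above all R1881 libraries.

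TFEB itself did not pass the test with all libraries, and the result turned on 1 of them. It was at 4.51, 5.01, 3.74, 10.8 and 6.28 CPM in combination replicates 1 to 5, against a lowest of 6.22, a median of 7.27 and a highest of 10.4 CPM in the R1881 libraries. Combination replicates 1, 2 and 3 were below every R1881 library, replicate 5 was at the low end of their range, and replicate 4 was above all of them. For TFEB the log2 fold change was -0.38 ± 0.18 (SE, 95% confidence interval -0.75 to -0.0028, adjusted p = 0.0927). Without combination replicate 4 it was -0.59 (adjusted p = 0.000935), and without replicates 3 and 4 together -0.49 (adjusted p = 0.00708). After a correction for GC content, chosen after the data had been seen, it was -0.37 (adjusted p = 0.000251). With each of the 15 libraries left out alone, the log2 fold change of TFEB ran from -0.59 to -0.24. Of these fits only 1, that without combination replicate 4, passed the test.

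TFE3, the close relative of TFEB, was at 52.9, 50.4, 52.2, 65.9 and 56.2 CPM in the combination libraries, against a lowest of 53.5, a median of 56.0 and a highest of 62.9 CPM in the R1881 libraries. The groups overlapped, with replicate 4 again the highest. TFE3 had a log2 fold change of -0.04 (95% confidence interval -0.16 to 0.08, adjusted p = 0.585), and it turned to 0.03 (adjusted p = 0.704) when libraries were scaled by their totals. At an unadjusted p under 0.05, TFEB alone of the pair passed limma's test, and edgeR and DESeq2 called neither.

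At the lysosome membrane LAMP2 rose and LAMP1 did not pass the test. LAMP2, a heavily glycosylated membrane protein that is needed for autophagosomes to mature, was at 348, 351, 367, 308 and 340 CPM in the combination libraries, against a lowest of 261, a median of 288 and a highest of 316 CPM in the R1881 libraries. The 4 combination libraries other than replicate 4 lay above all R1881 libraries. LAMP2 had a log2 fold change of 0.24 ± 0.051 (SE, adjusted p = 0.000797). LAMP1 averaged 97.0 ± 13.4 CPM in the combination group and 98.3 ± 4.97 CPM in the R1881 group (95% confidence interval -0.16 to 0.10).

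For the 24 genes that did not pass the test, the log2 fold changes ran from -0.38 (TFEB) to 0.24 (MAP1LC3A). The 95% confidence interval lay within 0.25 of 0 on either side for 16 of them and within 0.5 for 19. For the other 5, which include TFEB, ULK1 and MAP1LC3A, a change of more than 0.5 was not excluded by the interval.

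Per kilobase of exon, levels among the 38 genes spanned more than an order of magnitude. GABARAPL2 was highest, at 41.1 CPM per kb in the combination group and 40.2 CPM per kb in the R1881 group, and SQSTM1 followed at 37.8 and 37.2 CPM per kb in the same order. TFEB was lowest, at 0.901 CPM per kb in the combination group and 1.13 CPM per kb in the R1881 group. ATG3 was at 27.1 CPM per kb in the combination group, close to NBR1 at 27.9 CPM per kb, and at 9.86 CPM per kb in the R1881 group, close to WIPI1 at 10.3 CPM per kb. WIPI1 was at 1.72 CPM per kb in the combination group, where only TFEB was lower.

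The uneven libraries were mostly combination replicates 3 and 4, and they went opposite ways. Of the 5 combination libraries, replicate 4 was the highest for 15 of the 38 genes and the lowest for 18, and replicate 3 the highest for 17 and the lowest for 13. The genes highest in replicate 4 had a median transcript GC content of 57.5% and those lowest in it 43.8%. Across the 38 genes, which are not independent replicates, Spearman's correlation of GC content with the log2 deviation of the library from the other 4 was 0.905 for replicate 4 and -0.833 for replicate 3. In replicates 1, 2 and 5 it was -0.565, -0.725 and -0.179. ULK1, with a GC content of 64.5%, deviated most in replicate 4, by 1.69 on the log2 scale. The part of GC content in each result was not tested beyond the correction.

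**Figure D3:**
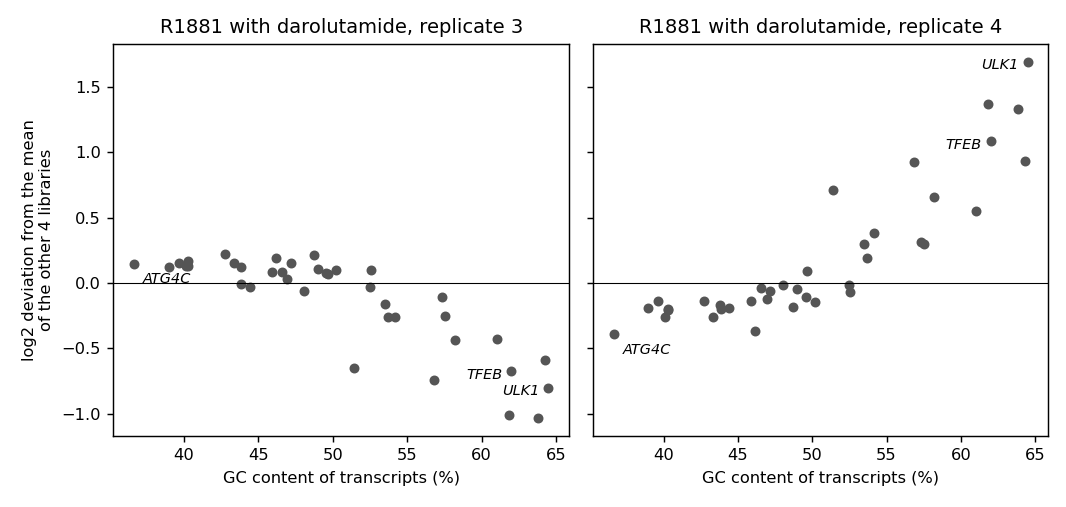
For combination replicates 3 and 4, the deviation of each of the 38 genes from the mean of the other 4 combination libraries (y axis, log2) is plotted against the GC content of its transcripts (x axis, %), 1 point per gene. Genes rich in GC, such as ULK1 and TFEB, are low in replicate 3 and high in replicate 4, and the deviation of ULK1 in replicate 4 reaches 1.69.

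Without combination replicate 4, 11 of the 38 genes were lower and 11 higher, and with the GC correction 10 and 10. Calls over all genes rose as well, from 4098 lower and 3946 higher of 17272 with all libraries. They were 4781 and 4096 of 17272 without replicate 4, and 4439 and 4210 of 13957 with the correction. All 14 genes called with all libraries kept their call in both cases. Leaving out replicate 4 added ULK1, ATG2A, ATG9A, ATG4B, ATG4D, ATG12, NBR1 and TFEB. The GC correction added BECN1, PIK3R4, ATG4A, ATG4D, ATG12 and TFEB, so that ATG4D, ATG12 and TFEB were called in both. In ATG4D, a protease gene of 63.8% GC, the log2 fold change was -0.50 without replicate 4 (adjusted p = 0.00947) and -0.26 with the correction (adjusted p = 0.00454).

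**Figure D4:**
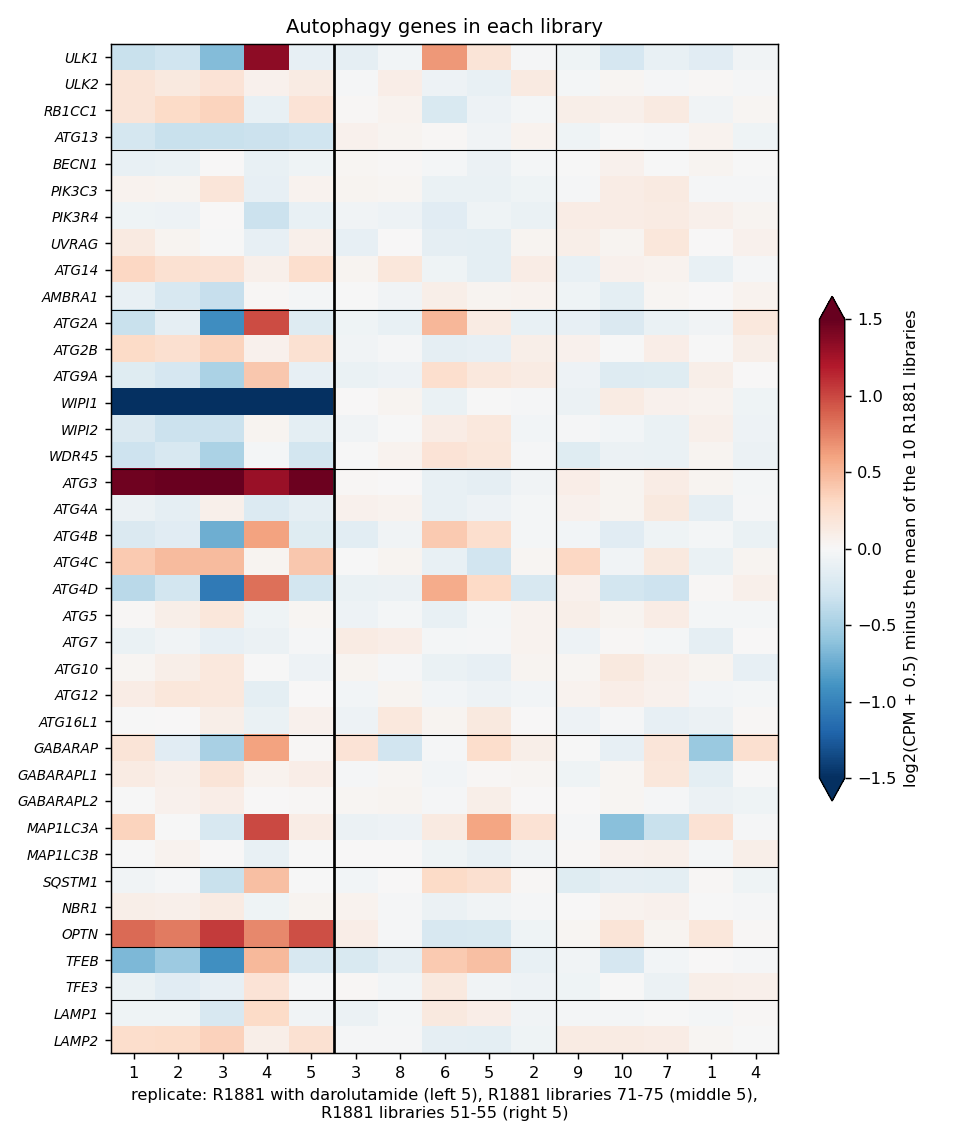
Each cell is log2(CPM + 0.5) of 1 gene in 1 library minus the mean of the gene over the 10 R1881 libraries, red for higher and blue for lower, with columns for R1881 with darolutamide (left), R1881 libraries 71 to 75 (middle) and R1881 libraries 51 to 55 (right) and lines between the steps. WIPI1 is blue and ATG3 and OPTN are red in all 5 combination libraries, while ULK1, ATG2A, ATG4B and ATG4D change colour between combination replicates 3 and 4.

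The difference between the R1881 runs served as the background between runs of the same treatment. Between libraries 71 to 75 and 51 to 55, 0 of the 38 genes passed limma's test, where 1.1% of all genes did. The count at an unadjusted p under 0.05 was 7 of 38, against 16.6% of all genes, and edgeR called 0 of 38. The log2 differences ran from -0.18 to 0.31 with a median of 0.01, so several of the smaller changes between treatments were no larger than differences between runs. WIPI1, ATG3 and OPTN differed between these runs by -0.04, -0.11 and -0.18. Of the 8 luminal markers 2 passed limma's test between these runs, KLK3 and TMPRSS2, with log2 differences of 0.35 and 0.16.

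Beyond the 38 genes, 120 further genes of autophagy and the lysosome were in the table, in 7 lists. Of these, 33 were lower and 22 higher, 27.5% and 18.3%, beside 23.7% and 22.8% of all genes. ATG101, the partner of ATG13 in the initiation complex, fell to 20.7 ± 4.13 CPM in the combination group, against 42.4 ± 3.70 CPM in the R1881 group (log2 fold change -1.03, adjusted p = 3.95e-08). ATG16L2, a paralogue of ATG16L1, rose to 5.04 ± 0.76 CPM in the combination group, against 2.22 ± 0.36 CPM in the R1881 group (log2 fold change 1.02, adjusted p = 2.58e-07). Both changes were without overlap between groups. VMP1 and TMEM41B, lipid scramblases of the endoplasmic reticulum needed for autophagosome growth, fell as well, with log2 fold changes of -0.55 and -0.28. In that list of other autophagy genes 4 of 12 were lower (33.3%) and 1 higher (8.33%), beside the same shares of all genes.

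Of 11 other receptors for cargo and organelles, 3 were lower (27.3%) and 2 higher (18.2%), beside 23.7% and 22.8% of all genes. RETREG1, a receptor for the endoplasmic reticulum also called FAM134B, rose to 112 ± 8.6 CPM in the combination group, against 55.5 ± 4.31 CPM in the R1881 group (log2 fold change 1.00, adjusted p = 1.21e-10). BNIP3, a mitophagy receptor, fell to 144 ± 8.45 CPM in the combination group, against 194 ± 4.96 CPM in the R1881 group (log2 fold change -0.43, adjusted p = 9.94e-09). TEX264, another receptor for the endoplasmic reticulum, and NCOA4, the ferritin receptor, had log2 fold changes of -0.40 and -0.20 and also passed the test, NCOA4 not against libraries 71 to 75 alone (adjusted p = 0.0795). Receptors for 1 organelle thus moved in both directions, since RETREG1 rose and TEX264 fell.

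Of 28 lysosomal hydrolases and their helper proteins, 11 were higher (39.3%) and 5 lower (17.9%), beside 22.8% and 23.7% of all genes. The median log2 fold change of this list was 0.06. With libraries scaled by their totals 15 were higher and 2 lower, while 5326 of all 17272 genes were higher and 3030 lower. MANBA, a mannosidase, rose to 49.2 ± 2.69 CPM in the combination group, against 30.8 ± 1.90 CPM in the R1881 group (log2 fold change 0.67, adjusted p = 3.56e-09). IDS, GM2A and SGSH, which act on glycosaminoglycans, a ganglioside and heparan sulfate, had log2 fold changes of 0.43, 0.42 and -0.41. In GENCODE version 44, 75.9% of the exon bases of IDS are shared with other genes on its strand, so its count is uncertain. The call of SGSH was lost with edgeR (adjusted p = 0.0513) and without combination replicate 1, 3 or 5 (0.054 to 0.0969). It was also lost against either R1881 run alone (limma adjusted p = 0.115 for libraries 51 to 55 and 0.0939 for 71 to 75). Of 16 subunits of the V-ATPase, the pump that acidifies the lysosome, 9 were lower (56.2%) and 0 higher by limma. Of all genes 23.7% were lower and 22.8% higher, and the median log2 fold change of the subunits was -0.17. The difference between these lists was not tested. At an unadjusted p under 0.05 limma gave 9 lower and 1 higher, edgeR and DESeq2 each called 7 lower and 1 higher, and with libraries scaled by their totals 7 were lower and 2 higher. Over all genes edgeR called 3943 lower and 4106 higher of 17272, DESeq2 3793 and 4080 of 17217, and scaling by totals gave 3030 and 5326 of 17272. Between R1881 libraries 71 to 75 and 51 to 55, 0 of the 16 subunits passed limma's test. At an unadjusted p under 0.05, 7 of the 16 differed between these runs, beside 16.6% of all genes. ATP6V0A2 fell to 31.4 ± 1.53 CPM in the combination group, against 47.6 ± 1.64 CPM in the R1881 group (log2 fold change -0.59, adjusted p = 4.46e-10). ATP6V0B, ATP6V0D1 and ATP6V1C1 followed with log2 fold changes of -0.53, -0.38 and -0.33, and in each of them the combination libraries lay wholly below the R1881 libraries.

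**Figure D5:**
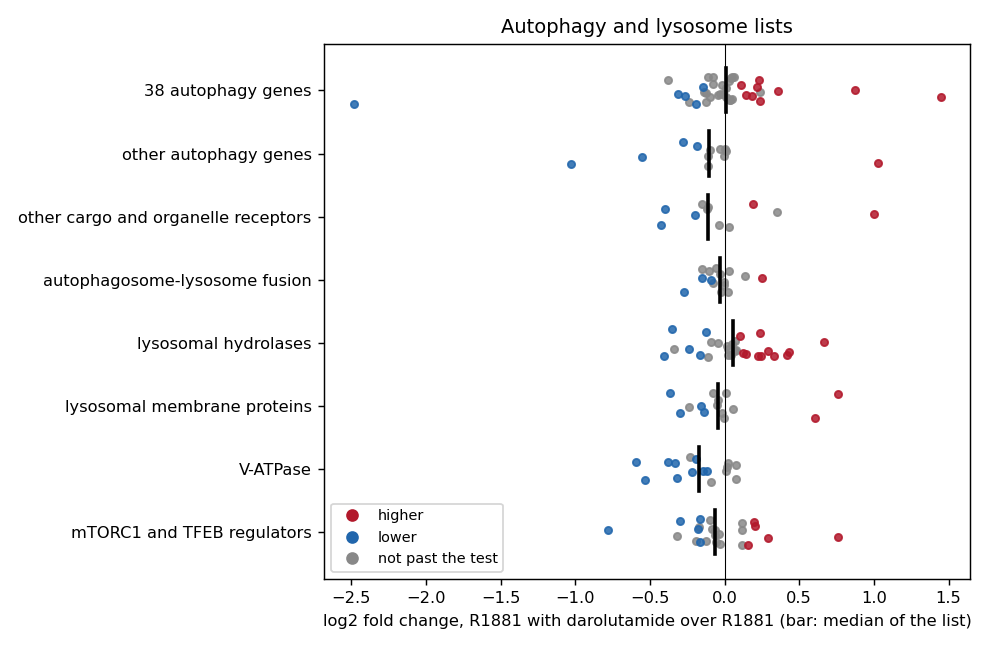
Each point is the log2 fold change of 1 gene (x axis, R1881 with darolutamide over R1881), red for higher, blue for lower and grey for not past limma's test, and each black bar is the median of its list. The V-ATPase list has 9 blue points and no red one, and the hydrolase list has 11 red and 5 blue. Of all genes, 23.7% were lower and 22.8% higher.

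Among 14 other lysosomal membrane proteins 4 were lower (28.6%) and 2 higher (14.3%), beside 23.7% and 22.8% of all genes. SLC38A9, the arginine sensor that signals to mTORC1, rose to 40.6 ± 2.56 CPM in the combination group, against 23.7 ± 1.5 CPM in the R1881 group (log2 fold change 0.76, adjusted p = 1.23e-09), and LAPTM4B rose by 0.60 on the log2 scale. CTNS, the cystine exporter, and TMEM192 had log2 fold changes of -0.36 and -0.30. In the fusion machinery 3 of 15 were lower (20%) and 1 higher (6.67%), beside the same shares of all genes. With edgeR 1 was lower and 1 higher, where over all 17272 genes 3943 were lower and 4106 higher. Its SNARE proteins YKT6 and STX17 had log2 fold changes of -0.27 and -0.15, and the tether subunit VPS41 one of 0.25. The changes of STX17 and of EPG5, a tether with a log2 fold change of -0.09, were no longer past the test with edgeR (adjusted p = 0.0561 and 0.0721). Of 28 alternatives, the minimum fold change left aside, STX17 kept its call in 11 and EPG5 in 13.

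Of 24 regulators of mTORC1 and TFEB, 5 were lower and 5 higher (20.8% each), near the 23.7% and 22.8% of all genes. MTOR, the kinase itself, fell to 84 ± 3.45 CPM in the combination group, against 145 ± 5.87 CPM in the R1881 group (log2 fold change -0.78, adjusted p = 4.04e-12). DEPTOR, an inhibitory subunit that binds mTOR, rose to 14.3 ± 0.65 CPM in the combination group, against 8.22 ± 0.55 CPM in the R1881 group (log2 fold change 0.76, adjusted p = 4.29e-09). For both the groups did not overlap. FLCN, which controls the phosphorylation of TFEB through the Rag GTPases, and its partner FNIP2 had log2 fold changes of 0.29 and -0.30. FNIP2 did not pass the test against libraries 71 to 75 alone (adjusted p = 0.0765).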

How the data were processed

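RNA was prepared with a stranded mRNA kit and sequenced as single-end 50-base reads. The authors converted the reads with bcl2fastq (version 2.17), aligned them to GRCh38 with STAR and counted them per gene with featureCounts of Subread, whose versions, annotation and strand setting are not given in the sources used here. The authors deposited 1 signal value per gene and library, which they describe as CPM. In each library 100% of the values were whole reads divided by 1 factor (tolerance 0.001 reads), and the columns summed to 1005403 to 1078567. Groups follow the sample labels (1 nM R1881, 10 R1881 and 5 combination libraries), where the paper's methods give 1 µM and the group sizes the other way round.

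All 17272 genes were tested with limma (version 3.58.1, R 4.3.3) trend on log2(CPM + 0.5) without a filter, on all 15 libraries, with Benjamini-Hochberg adjusted p under 0.05 over all genes. The script was tested on simulated data. Fold changes are on that scale and understate low genes. The paper describes the samples as biological replicates. All p-values rest on the spread among these samples. The members and lists were chosen with earlier results of these data known. The rule named TFEB, TFE3, genes past the test with an absolute log2 fold change of at least 0.5, the gene of smallest p in each step, and up to 4 called genes of largest change (mean of at least 1 CPM) in each other list. ULK1, ATG4C, ATG4D, ARSG, SLC35A5 and the other genes given with values were added after their values were seen.

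Alternatives were pseudocounts of 0.1 and 1, a minimum mean of 1 CPM, scaling by library totals, edgeR (4.0.16, TMM) and DESeq2 (1.42.0) on the recovered reads, a minimum absolute log2 fold change of 0.5, either R1881 run alone, a term for these runs, the replicate number as a block, and each library left out. A GC correction (a spline of 5 degrees of freedom fitted in each library to 13957 genes) and the alternatives for the other lists were chosen after seeing the data. Replicate numbers did not pair the samples. No libraries were duplicates, since the most similar pair differed by a mean chi-square of 1.63, where 1 is sampling noise. Of 125 listed further genes 120 were in the table. Positions are from GENCODE version 44.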

Additional observations from a re-analysis of the deposited data

Results flagged for a closer look

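In 9 of 132 sets of libraries, each a gene in 1 treatment group, 1 library stood apart from the rest of its group by Dixon's criterion, where chance gives about 1 in 20. In combination replicate 4, ULK1 was at 62.0 CPM (the other 4 libraries at 15.2 to 22.1), ATG2A at 44.6 CPM (11.5 to 20.5) and ATG4D at 24.85 CPM (6.34 to 11.3). In the same library ATG4C was at 12.8 CPM (16.4 to 17.4) and TMEM41B at 53.3 CPM (61.4 to 63.7), so it was high for 3 genes and low for 2. In R1881 replicate 6, ULK1 was at 38.3 CPM (the other 9 libraries at 20.2 to 27.6), ATG2A at 31.9 CPM (19.3 to 25.1) and VMP1 at 192.7 CPM (204.4 to 217.2). In R1881 replicate 7, IDS was at 65.1 CPM (49.4 to 56.5).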

How the results depend on the processing

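Against 5 lower autophagy genes, 3 were lower with scaling by library totals, 3 against R1881 libraries 51 to 55 alone, 1 with a minimum absolute log2 fold change of 0.5 and 10 with the GC correction. The higher genes numbered 9, and 2 with that minimum. With 1 library left out at a time, 4 to 11 genes were lower and 7 to 11 higher, and the 11 and 11 came without combination replicate 4. Without that replicate, 4781 of all 17272 genes were lower and 4096 higher, and with the GC correction 4439 and 4210 of 13957. With the replicate number as a block (R1881 replicates 1 to 5), 3 were lower and 6 higher, where the same libraries without the block gave 4 and 8. Own-number correlations were -0.126 to 0.287 and 0 of 5 combination libraries were closest to their own number, so the block says nothing of pairs. In the other lists 33 were lower and 22 higher, with 5 and 6 at the minimum fold change and 29 to 39 lower and 19 to 23 higher with 1 library left out. Scaling by library totals turned TFE3 to 0.03 and over all genes gave 3030 lower and 5326 higher. The cause of these shifts was not tested. WIPI1 (-2.58 to -2.40), ATG3 (1.39 to 1.52) and OPTN (0.79 to 0.96) passed the test under every alternative run. At 15830745 reads in the smallest library, MAP1LC3A, GABARAP and TFEB had the lowest mean CPM of the 38 genes in the R1881 group (WIPI1 was also below TFEB in the combination group), and intervals cover the spread between libraries only.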
